A study of Homo sapiens with 5 samples.

Results

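The 40 genes described here are the enzymes of glycolysis, the genes around them that set how sugar enters the cell and what becomes of pyruvate, and genes that cells typically switch on when oxygen is low. They were taken by gene symbol from a list that was drawn up with earlier results of these data known, so that the counts below are not those of a list chosen blind. No threshold on a measured value entered the rule, and all 40 were found once in the gene lists of the 8 libraries, which hold 36601 genes for the 5 early conditions and 33538 genes for the 3 late ones. By role the list holds 14 glycolytic enzymes, 2 regulators of the flow through the pathway, 4 genes for the fate of pyruvate, 3 transporters, 3 genes of oxygen sensing and 14 low-oxygen targets outside glycolysis.

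The cells were WA09, an established line of human embryonic stem cells, with no engineered allele named in the labels, differentiated towards neurons that make gonadotropin-releasing hormone and measured by 10x Chromium single-cell RNA sequencing of the 3′ ends of transcripts. D0 was the undifferentiated line. D5_dSMADi and D10_dSMADi had received dorsomorphin and SB431542, the pair of small molecules used for dual SMAD inhibition (dSMADi), for 5 and 10 days without XAV939, and D5_XAV939 and D10_XAV939 had received the same pair with XAV939, a tankyrase inhibitor that lowers Wnt signalling, from day 0. D22, D24 and D26 came from the protocol without XAV939, in which the dual SMAD inhibition was followed by the growth factor FGF8, a freeze and thaw, and then DAPT, an inhibitor of Notch processing. Whether cultures without XAV939 received its solvent is not given in the sources used here. Each condition was 1 set of cells, called a library here although the 5 early ones were sequenced as 1 tagged pool and separated by tag, so that no difference below has a replicate check and no p-value is given. The intervals are exact 95% intervals that cover counting error only, and the spread between cultures is unknown.

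Glycolysis turns glucose into pyruvate in the cytoplasm and yields ATP without oxygen. Pyruvate then either enters the mitochondria or is turned into lactate by lactate dehydrogenase, whose subunits LDHA and LDHB favour the making and the use of lactate, respectively. The transcription factor subunit HIF1A is made all the time, and prolyl hydroxylases of the EGLN family, which need oxygen, mark it for destruction. When oxygen is low the protein is spared and binds DNA at a short core sequence, and its targets include most glycolytic enzymes, LDHA, glucose transporters, VEGFA and EGLN3 itself. Pluripotent stem cells are known for high glycolysis, and neurons for a lower dependence on it.

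After the filters on cells, 1009 cells of D0, 2419 of D5_dSMADi, 2815 of D5_XAV939, 2416 of D10_dSMADi, 2168 of D10_XAV939, 9523 of D22, 9107 of D24 and 11056 of D26 were kept, with between 58073098 and 130440502 unique molecular identifiers (UMIs, single captured transcripts) per library. The median UMIs per cell ranged from 7180 at D24 to 69455 at D0. Levels are UMIs summed over the cells of a library and divided by the library's total, scaled to a total of 1000000 (CPM). The 5 early conditions carried sample tags and shared 1 droplet run, so that free RNA was common to them, and between 95.1% and 95.6% of the tag UMIs of each were of its own tag. No barcode was shared among the 5, and between 27 and 51 barcodes were shared between any other pair of runs. The early cells were detached with Accutase and the late cells with Papain, and the runs used different gene annotations, so early and late levels are set side by side only. The share of UMIs from ribosomal protein genes differed between libraries, from 14.6% at D26 to 32.4% in D5_dSMADi.

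The stretches of DNA just before the start of 4 of the 6 genes that were lower with XAV939 at both D5 and D10 are shown because low-oxygen genes are commonly recognised by the letters ACGTG or GCGTG. Each is the 250 bases before the first start listed in RefSeq (GRCh38.p14), 5′ to 3′ on the gene's own strand, with every ACGTG or GCGTG in capitals on either strand (CACGT and CACGC on the other). P4HA1 and ALDOA, the others of the 6, are given by their counts of matches only. The palindrome CACGTG holds ACGTG on both strands and counts as 2 matches. LDHA lies on the plus strand, at chr11:18394313-18394562, and makes the subunit of lactate dehydrogenase that favours lactate.
LDHA: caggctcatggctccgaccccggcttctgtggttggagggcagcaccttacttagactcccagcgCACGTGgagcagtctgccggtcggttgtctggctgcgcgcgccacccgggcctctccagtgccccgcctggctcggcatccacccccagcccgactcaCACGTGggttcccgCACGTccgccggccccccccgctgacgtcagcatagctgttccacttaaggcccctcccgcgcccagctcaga
PGK1, on the plus strand at chrX:78103998-78104247, encodes phosphoglycerate kinase, which forms ATP in glycolysis.
PGK1: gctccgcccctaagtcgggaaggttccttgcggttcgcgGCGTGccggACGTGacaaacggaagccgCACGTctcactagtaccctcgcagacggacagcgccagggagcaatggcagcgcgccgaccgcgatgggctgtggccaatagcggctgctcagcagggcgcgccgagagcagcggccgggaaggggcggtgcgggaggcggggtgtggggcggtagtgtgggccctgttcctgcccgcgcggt
FAM162A, on the plus strand at chr3:122383932-122384181, encodes a mitochondrial protein induced at low oxygen.
FAM162A: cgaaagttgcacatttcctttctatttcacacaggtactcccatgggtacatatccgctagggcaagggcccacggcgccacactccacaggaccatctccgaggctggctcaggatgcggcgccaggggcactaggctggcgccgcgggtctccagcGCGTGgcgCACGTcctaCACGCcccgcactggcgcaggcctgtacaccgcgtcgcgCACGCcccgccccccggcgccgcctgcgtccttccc
EGLN3, on the minus strand at chr14:33951075-33951324, encodes a prolyl hydroxylase that acts on HIF1A.
EGLN3: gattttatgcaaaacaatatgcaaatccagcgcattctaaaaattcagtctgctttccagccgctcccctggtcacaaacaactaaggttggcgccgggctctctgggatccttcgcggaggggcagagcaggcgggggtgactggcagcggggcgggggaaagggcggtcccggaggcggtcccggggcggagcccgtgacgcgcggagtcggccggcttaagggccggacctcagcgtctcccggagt

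The window of LDHA held 5 matches, all of ACGTG, and that of PGK1 held 3, of which 2 were ACGTG. That of FAM162A held 4, of which 1 was ACGTG, and that of EGLN3 held 0. Over all members with an entry in the table, 23 of 35 windows (65.7%) held either motif, against 43.1% of the windows of 27305 genes, and 15 (42.9%) held ACGTG, against 18.7%. P4HA1, a subunit of the collagen prolyl hydroxylase, and ALDOA had 1 match each and BNIP3, a mitophagy receptor, had 6. LDHB, SLC16A3 and P4HA2 had 0. A match describes letters in this window and is not a measured binding site. SLC2A3, BNIP3L, VEGFA, NDRG1 and HILPDA had no entry.

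**Figure D1:**
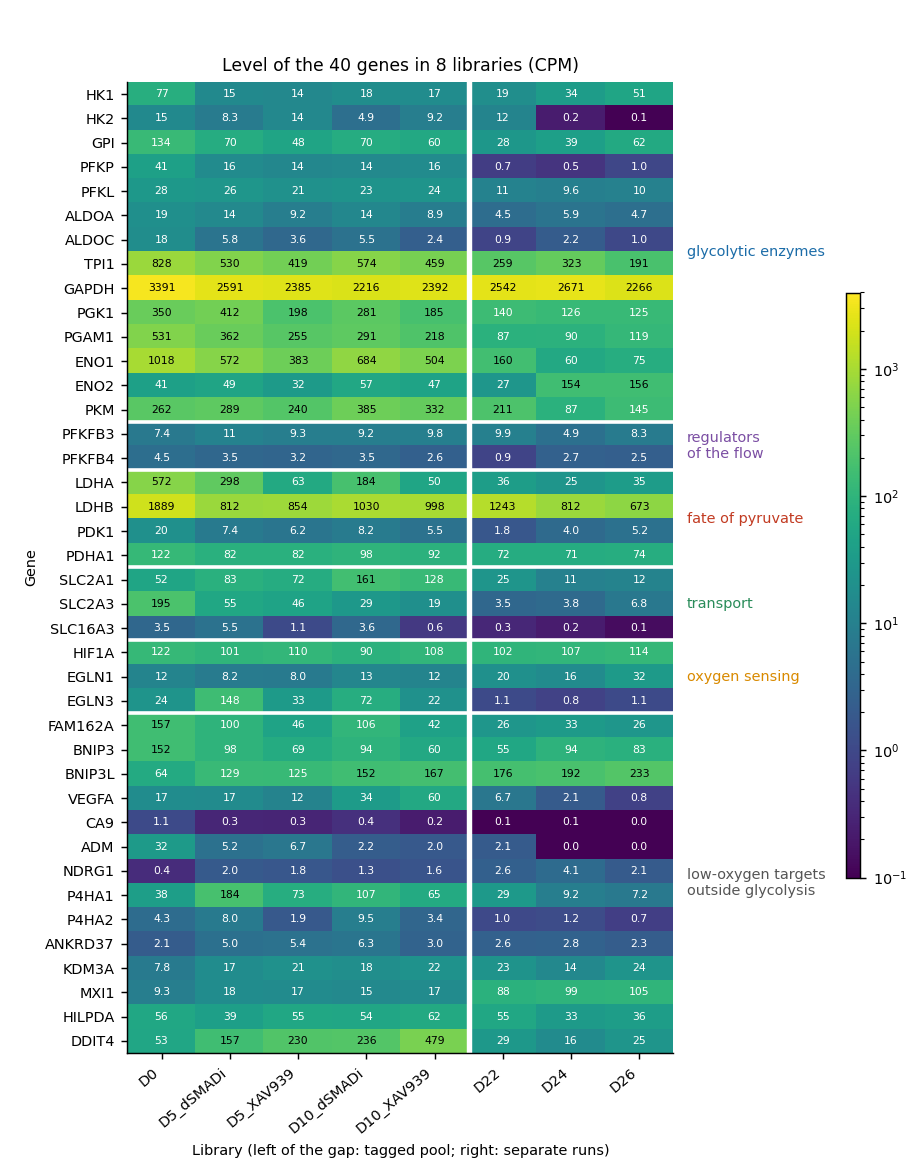
Level of each of the 40 genes (rows, grouped by role) in each of the 8 libraries (columns), as CPM of summed UMIs on a log colour scale, with the value printed in each cell. GAPDH is at 2216 CPM or more in all 8 libraries, LDHA stands at 572 CPM at D0 and 25.2 CPM at D24, and EGLN3 is at 148 CPM in D5_dSMADi and at or under 1.09 CPM from D22 on.

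The plot of levels by library shows how differently the members were read. GAPDH, the enzyme of the middle of the pathway that is often used as a reference gene, kept the narrowest range of the abundant enzymes, from 2216 CPM in D10_dSMADi to 3391 CPM at D0. HIF1A mRNA was between 89.7 CPM in D10_dSMADi and 122 CPM at D0 in every library. By contrast CA9, a carbonic anhydrase induced at low oxygen, was at or under 1.08 CPM in all 8 libraries, and NDRG1 was at or under 4.06 CPM. ANKRD37 stayed at or under 6.26 CPM, the regulator PFKFB4 at or under 4.54 CPM, and PKM, the last enzyme of the pathway, lay between 87.2 and 385 CPM. ALDOA was read at 19.2 CPM at most and overlaps a readthrough gene on the same strand. Reads that map to several places are not counted by Cell Ranger, so that ALDOA and genes with many pseudogene copies, such as GAPDH with 65 named in the annotation and BNIP3 with 44, may be understated.

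The comparison of D5_XAV939 with D5_dSMADi and of D10_XAV939 with D10_dSMADi addresses the effect of a Wnt inhibitor on these genes at the neural induction stage. LDHA showed the largest difference of any member above 10 CPM at both days. It was at 298 CPM in D5_dSMADi and 62.5 CPM in D5_XAV939, 4.77-fold lower (log2 ratio -2.25, interval -2.30 to -2.21), and at 184 CPM in D10_dSMADi and 50.2 CPM in D10_XAV939, 3.66-fold lower (log2 ratio -1.87, interval -1.93 to -1.81). Both cultures with XAV939 were thus below both cultures without it. Among all genes with at least 10 CPM in either culture, LDHA had rank 6 from the lowest ratio of 8181 genes at D5 and rank 32 of 8713 genes at D10. Its partner LDHB was nearly level, with 812 CPM in D5_dSMADi and 854 CPM in D5_XAV939, and 1030 CPM in D10_dSMADi and 998 CPM in D10_XAV939. LDHA lies at chr11:18394560-18408425 on the plus strand and LDHB at chr12:21635342-21757857 on the minus strand of GRCh38.

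EGLN3 followed LDHA closely. It was at 148 CPM in D5_dSMADi and 32.6 CPM in D5_XAV939 (4.53-fold lower, log2 ratio -2.18, interval -2.24 to -2.12), and at 72.4 CPM in D10_dSMADi and 21.7 CPM in D10_XAV939 (3.34-fold lower, log2 ratio -1.74, interval -1.83 to -1.65). The other genes of oxygen sensing did not follow it. HIF1A was slightly higher with XAV939, with 101 against 110.4 CPM at D5 (log2 ratio 0.13) and 89.7 against 108 CPM at D10 (log2 ratio 0.27). EGLN1, the most widely used hydroxylase of the family, was at 8.19 against 7.97 CPM at D5 and 12.96 against 11.7 CPM at D10. EGLN3 lies at chr14:33924227-34462774 on the minus strand and overlaps SPTSSA there. PGK1 likewise overlaps ATP7A on its own strand, and strand could not separate the reads of such pairs. PGAM4 overlaps PGK1 on the opposite strand, and the use of strand in the counting is not stated.

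In all, 30 of the 40 members reached 10 CPM in either culture at D5. Of these, 7 were lower by at least 1.5-fold with XAV939 and 1 was higher, where 1.76% of all genes were lower and 3.08% were higher by the same rule. At D10, 29 members reached 10 CPM, 7 were lower and 2 were higher, where 3.68% of all genes were lower and 3.67% were higher. The median log2 ratio of the members was -0.27 at D5, against 0.05 for all genes, and -0.21 at D10, against 0.02. At D5 the interval lay below 0 for 22 of the 30 members and above 0 for 6, and at D10 it lay below 0 for 18 of 29 and above 0 for 9. The comparisons at D5 and at D10 share no cells, but all 4 cultures were in the same tagged pool. Of 28 members with at least 10 CPM at both days, 6 were lower past 1.5-fold at both, namely LDHA, EGLN3, P4HA1, FAM162A, PGK1 and ALDOA, and 0 were higher at both. Of 7985 genes in all, 62 (0.776%) were lower at both days and 80 (1.00%) were higher at both.

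Among the glycolytic enzymes, the members past 1.5-fold were 3 lower and 1 higher of 13 at D5, and 2 lower and 0 higher of 12 at D10. PGK1 was at 412 CPM in D5_dSMADi and 198 CPM in D5_XAV939, 2.08-fold lower (log2 ratio -1.06), and at 281 and 185 CPM at D10, 1.52-fold lower (log2 ratio -0.61), close to the threshold. ALDOA, aldolase A, was lower at both days by a like amount, 1.56-fold at D5 and 1.52-fold at D10. ENO2, the enolase of neurons, was 1.55-fold lower at D5 (49.0 against 31.6 CPM) and 1.22-fold lower at D10 (57.5 against 47.1 CPM). ENO1, GPI and PGAM1, of the enolase, isomerase and mutase steps, were lower by less than 1.5-fold at D5, with log2 ratios of -0.58, -0.55 and -0.51, and again at D10, with -0.44, -0.21 and -0.42. GAPDH differed in sign between the days, with log2 ratios of -0.12 and 0.11. HK2, the hexokinase that is commonly induced in growing cells, went the other way from these. It was at 8.32 CPM in D5_dSMADi and 14.1 CPM in D5_XAV939, 1.70-fold higher (log2 ratio 0.76, interval 0.63 to 0.90), and at 4.86 and 9.21 CPM at D10, under the minimum of 10 CPM. HK1 was nearly level, at 15.1 against 13.9 CPM at D5 and 17.7 against 17.2 CPM at D10.

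Of the genes for the fate of pyruvate, only LDHA was past 1.5-fold among the 3 with at least 10 CPM at each day. PDHA1, a subunit of the enzyme that feeds pyruvate to the mitochondria, was at 82.3 against 82.1 CPM at D5 and 97.7 against 91.6 CPM at D10. PDK1, the kinase that shuts that enzyme off, was under 10 CPM, with 7.44 against 6.22 CPM at D5 and 8.24 against 5.49 CPM at D10. Of the transporters, the glucose transporters SLC2A1 and SLC2A3 were lower by less than 1.5-fold at both days. SLC16A3, which carries lactate out of the cell, was rare but had the largest ratio of all members, with 5.48 against 1.06 CPM at D5 (log2 ratio -2.37, interval -2.71 to -2.04) and 3.58 against 0.59 CPM at D10 (log2 ratio -2.61, interval -3.17 to -2.10). PFKFB3, a regulator that speeds up glycolysis, was at 10.9 against 9.29 CPM at D5.

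The low-oxygen targets outside glycolysis split into members that were lower and members that were higher. P4HA1 was 2.52-fold lower at D5 (184 against 73.2 CPM) and 1.65-fold lower at D10 (107 against 64.7 CPM). FAM162A was 2.19-fold lower at D5 (100.5 against 45.8 CPM) and 2.50-fold lower at D10 (106 against 42.4 CPM). BNIP3 was 1.42-fold lower at D5 (97.8 against 68.8 CPM) and 1.58-fold lower at D10 (94.2 against 59.5 CPM), whereas its paralog BNIP3L was level, with log2 ratios of -0.05 and 0.13. P4HA2, under 10 CPM, was at 8.04 against 1.90 CPM at D5 and 9.48 against 3.36 CPM at D10. DDIT4, an inhibitor of the growth kinase mTOR, was higher, at 157 against 230 CPM at D5 (1.47-fold) and 236 against 479 CPM at D10 (2.03-fold, log2 ratio 1.02, interval 0.99 to 1.05). VEGFA, the growth factor for blood vessels, was at 16.9 against 11.6 CPM at D5, 1.45-fold lower, and at 33.8 against 59.6 CPM at D10, 1.76-fold higher. Among the members with at least 10 CPM at both days, its ratio differed most between the days, a difference that was not tested. HILPDA, KDM3A and MXI1 stayed within 1.5-fold at both days in the whole libraries, with log2 ratios from -0.05 to 0.49.

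**Figure D2:**
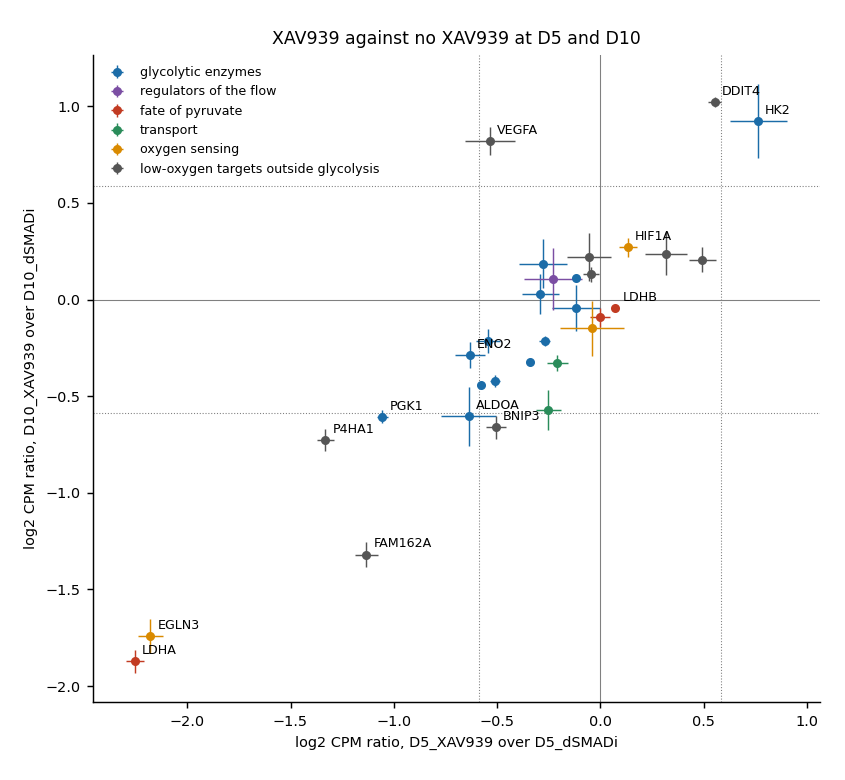
Log2 CPM ratio with over without XAV939 at D5 (horizontal) and D10 (vertical), 1 point per member with at least 10 CPM at either day, coloured by role, with bars for the exact 95% counting intervals and dotted lines at 1.5-fold. LDHA and EGLN3 lie farthest to the lower left at -2.25 and -1.87 and at -2.18 and -1.74, LDHB lies near 0 on both axes, and VEGFA lies at -0.53 and 0.82.

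The same differences were visible in how many cells had a UMI of a gene. With every cell thinned to 10000 UMIs, EGLN3 was found in 73.2% of D5_dSMADi cells and 25.2% of D5_XAV939 cells, and in 47.4% of D10_dSMADi cells and 18.1% of D10_XAV939 cells. Without thinning the shares were 95.5% and 52.6% at D5 and 81.7% and 37.6% at D10. LDHA was found in 79.2% and 42.0% of thinned cells at D5 and in 66.8% and 38.0% at D10, and in 98.8% at D0. VEGFA was found in 13.9% and 9.98% at D5 and in 25.3% and 37.4% at D10. No cell type that should lack these genes was in the droplet run, so no background share can be set beside them.

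Other measures moved with XAV939. MKI67, a marker of dividing cells, was at 135 CPM in D5_dSMADi and 210.4 CPM in D5_XAV939, and 2 of 7 cell cycle genes were higher past 1.5-fold at D5 and 1 of 7 at D10. Cells with at least 1 UMI each of MKI67 and TOP2A, a call that depends on depth, were 44.7% of D5_dSMADi, 54.2% of D5_XAV939, 55.7% of D10_dSMADi and 62.6% of D10_XAV939. In dividing cells alone the log2 ratio of LDHA was -2.39 at D5 and -1.92 at D10, and in cells without a UMI of either gene it was -2.07 and -2.06. For EGLN3 these were -2.03 and -1.80 in dividing cells, and -2.33 and -1.54 in the others. Over the members, 9 were lower and 2 higher in dividing cells at D5 (1.49% and 2.69% of all genes), and 8 and 0 in the others (2.62% and 4.31%). PFKL, the liver form of phosphofructokinase, was among the 8, at 29.1 against 18.9 CPM, whereas ALDOA (12.4 against 9.56 CPM) and HK2 (8.21 against 11.1 CPM) were within 1.5-fold there. At D10, 5 were lower and 2 higher in dividing cells (3.48% and 3.63%), where PGK1 and ALDOA were within 1.5-fold, and 7 and 2 in the others (4.68% and 6.84%). In the cells not dividing at D10, DDIT4 was within 1.5-fold, at 174 against 221 CPM (log2 ratio 0.35, against 1.00 in dividing cells), as was BNIP3, at 101 against 75.9 CPM. MXI1 was past it there, at 18.2 against 31.2 CPM (0.78), as was P4HA2, at 10.1 against 4.52 CPM, and VEGFA was higher in both classes of cells.

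At D10 the genes of amino acid shortage and the integrated stress response were also higher with XAV939. Of 7 such genes with at least 10 CPM, 4 were higher past 1.5-fold and 0 lower, with CHAC1 at 35.8 against 75.6 CPM and PSAT1 at 239 against 397 CPM, and the list summed to 819 CPM in D10_dSMADi and 1180 CPM in D10_XAV939. At D5, 0 of 4 were past 1.5-fold, and the list summed to 391 and 381 CPM. Of the genes set off by dissociation, 0 of 6 were past 1.5-fold at D5, and 1 was higher and 2 lower of 8 at D10. Of 7 progenitor markers at D5, HES1 was higher with XAV939 (33.9 against 81.8 CPM) and HES5 (171 against 96.1 CPM) and PAX6 (157 against 82.3 CPM) were lower, and at D10 PAX6 was lower (246 against 142 CPM). Of the neuron markers, 3 of 4 were higher at D10, and the summed level was 230.2 CPM in D10_dSMADi and 411 CPM in D10_XAV939. The mesenchyme markers summed to 14.9 against 6.78 CPM and the neural crest markers to 305 against 108 CPM at D10. Markers of endoderm, endothelium and epidermis summed to 0.728 CPM or less in every library. The part of stress genes and of cell type in the differences was not tested.

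Of 57 other genes of the pathway and its low-oxygen targets, 30 had at least 10 CPM at D5, 2 were higher and 4 were lower past 1.5-fold, and at D10 3 were higher and 5 were lower of 32. PGM1, GBE1 and CXCR4 were lower at both days. PGM1, which links glycogen to glycolysis, was at 16.5 against 8.15 CPM at D5 and 25.99 against 11.2 CPM at D10. GBE1, the glycogen branching enzyme, was at 10.4 against 5.92 CPM and 20.6 against 5.56 CPM. IGFBP3, a secreted carrier of insulin-like growth factors, went the other way, at 19.7 against 69.3 CPM at D5 and 54.3 against 233 CPM at D10. PDP1, which switches pyruvate dehydrogenase back on, was higher at both days, at 10.7 against 17.9 CPM and 17.3 against 29.3 CPM. The list was drawn up with earlier results of these data known, as were the others.

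From D0 to D5_dSMADi members differed in both directions. Of 34 members with at least 10 CPM, 7 were higher and 14 lower past 1.5-fold, where 18.1% of all genes were higher and 28.8% were lower. The median over all genes was -0.12, and the log2 ratios that follow are given relative to it. With mitochondrial and ribosomal protein genes left out of the totals, 9 were higher and 11 lower (25.9% and 23.2% of all genes). Centred on the median of all genes, 8 and 11 were (22.6% and 24.8%). Of 14 glycolytic enzymes 0 were higher and 7 lower, and of 4 genes for the fate of pyruvate 0 and 3. Of 10 low-oxygen targets 5 were higher and 3 lower, and of 2 transporters 1 was higher and 1 lower. HK1 was at 77.3 CPM at D0 and 15.1 CPM at D5 (relative log2 ratio -2.23), PFKP at 40.8 and 16.4 CPM (-1.19) and ENO1 at 1018 and 572 CPM (-0.71). ALDOC, a brain form of aldolase, was at 18.3 and 5.82 CPM (-1.53), GPI at 134 and 70.5 CPM (-0.81), HK2 at 15.4 and 8.32 CPM (-0.77) and TPI1, triose phosphate isomerase, at 828 and 530.2 CPM (-0.52). PDK1 was at 20.4 and 7.44 CPM (-1.34). LDHB (1889 to 812 CPM) was lower by more than LDHA (572 to 298 CPM), with relative log2 ratios of -1.10 and -0.82. Also lower were the transporter SLC2A3, from 195 to 54.9 CPM (-1.71), and ADM, the vessel-relaxing peptide adrenomedullin, from 32.3 to 5.17 CPM (-2.53). FAM162A (157 to 100.5 CPM, -0.53), BNIP3 (152 to 97.8 CPM, -0.52) and TPI1 were past 1.5-fold before the shift of the median was taken off and within it after.

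EGLN3 and P4HA1 moved the opposite way over the same days. EGLN3 went from 24.4 CPM at D0 to 148 CPM in D5_dSMADi (relative log2 ratio 2.72), and P4HA1 from 38.4 to 184 CPM (2.38). DDIT4 went from 52.8 to 157 CPM (1.69), KDM3A, a histone demethylase, from 7.78 to 17.2 CPM (1.27), and BNIP3L from 63.8 to 129 CPM (1.14). MXI1 went from 9.34 to 17.5 CPM (1.03) and SLC2A1 from 51.5 to 83.0 CPM (0.81). LDHA and EGLN3, which had the lowest ratios with XAV939 at D5 among members with at least 10 CPM, thus differed in direction over the course, since LDHA was lower at D5 than at D0 and EGLN3 was higher. D5_XAV939 was at 62.5 CPM for LDHA and 32.6 CPM for EGLN3, that is under D0 for LDHA and slightly over D0 for EGLN3. Of the other pathway genes, 9 were higher and 7 lower of 32. Of the 4 pluripotency markers, POU5F1 went from 1244 to 26.6 CPM, NANOG from 78.1 to 0.67 CPM and DPPA4 from 555 to 136 CPM. LIN28A went the other way, from 473 to 526 CPM. It made up most of the summed 689 CPM at D5, against 2349 CPM at D0. The cell cycle genes were lower in 4 of 7 and the amino acid stress genes in 5 of 6. These changes in identity and division cannot be told apart from the change of the members in a comparison of whole libraries, in which fewer cells of a type and less RNA per cell also look alike.

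From D5_dSMADi to D10_dSMADi fewer members moved. Of 30 members 4 were higher and 4 lower, where 14.2% of all genes were higher and 3.28% lower, and the median over all genes was 0.18. Centred on that median, 2 were higher and 5 lower (8.46% and 6.04% of all genes). Without mitochondrial and ribosomal protein genes in the totals, 2 and 6 were (9.64% and 6.20%). VEGFA went from 16.9 to 33.8 CPM (log2 ratio relative to the median 0.82) and SLC2A1 from 83.0 to 161 CPM (0.77), whereas EGLN1 (0.48) and DDIT4 (0.41) were past 1.5-fold only before centring. Those relative ratios for EGLN3, SLC2A3, P4HA1 and LDHA were -1.21, -1.11, -0.96 and -0.88, and for PGK1 -0.73. None of 12 glycolytic enzymes passed 1.5-fold before centring. In the cultures with XAV939, from D5_XAV939 to D10_XAV939, 3 of 29 members were higher (VEGFA, DDIT4 and SLC2A1) and 3 lower (SLC2A3, HK2 and EGLN3), where 12.0% of all genes were higher and 3.55% lower and the median over all genes was 0.16. VEGFA went from 11.6 to 59.6 CPM there. The amino acid stress genes were higher over these days in 6 of 6 without XAV939 and in 7 of 7 with it. These courses share libraries with the comparisons of XAV939, so that they are set side by side only.

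Within pairs of related genes the share of UMIs differed with XAV939 in some pairs and hardly in others. The share is read between libraries and not as a ratio of protein. LDHB made up 76.8% of the LDHA and LDHB UMIs at D0 (interval 76.6% to 77.0%), 73.1% in D5_dSMADi and 93.2% in D5_XAV939, 84.9% in D10_dSMADi and 95.2% in D10_XAV939, and 95.1% to 97.2% from D22 to D26. In number, both cultures with XAV939 lay nearer to the late libraries in this share than to their partners. The late cells had no XAV939 and came from other runs, so these values are set side by side only. EGLN3 made up 67.1% of the EGLN1 and EGLN3 UMIs at D0, 94.7% and 80.4% at D5 without and with XAV939, 84.8% and 64.9% at D10, and 4.75% and 3.25% at D24 and D26. HK2 made up 16.7% of the HK1 and HK2 UMIs at D0, 35.5% and 50.3% at D5, 21.5% and 34.9% at D10, 38.3% at D22, and 0.66% and 0.14% at D24 and D26. BNIP3 made up 70.5% of the BNIP3 and BNIP3L UMIs at D0 and 43.1% and 35.5% at D5. SLC2A3 made up 79.1% of the SLC2A1 and SLC2A3 UMIs at D0, 39.8% and 39.1% at D5 and 15.2% and 13.2% at D10. At D5 without and with XAV939, ENO2 made up 7.88% and 7.62% of its pair with ENO1. PFKP made up 38.6% and 38.8% of its pair with PFKL, and ALDOC 28.8% and 28.1% of its pair with ALDOA. At D10 these were 7.75% and 8.55%, 38.2% and 40.8%, and 29.0% and 21.4%.

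**Figure D3:**
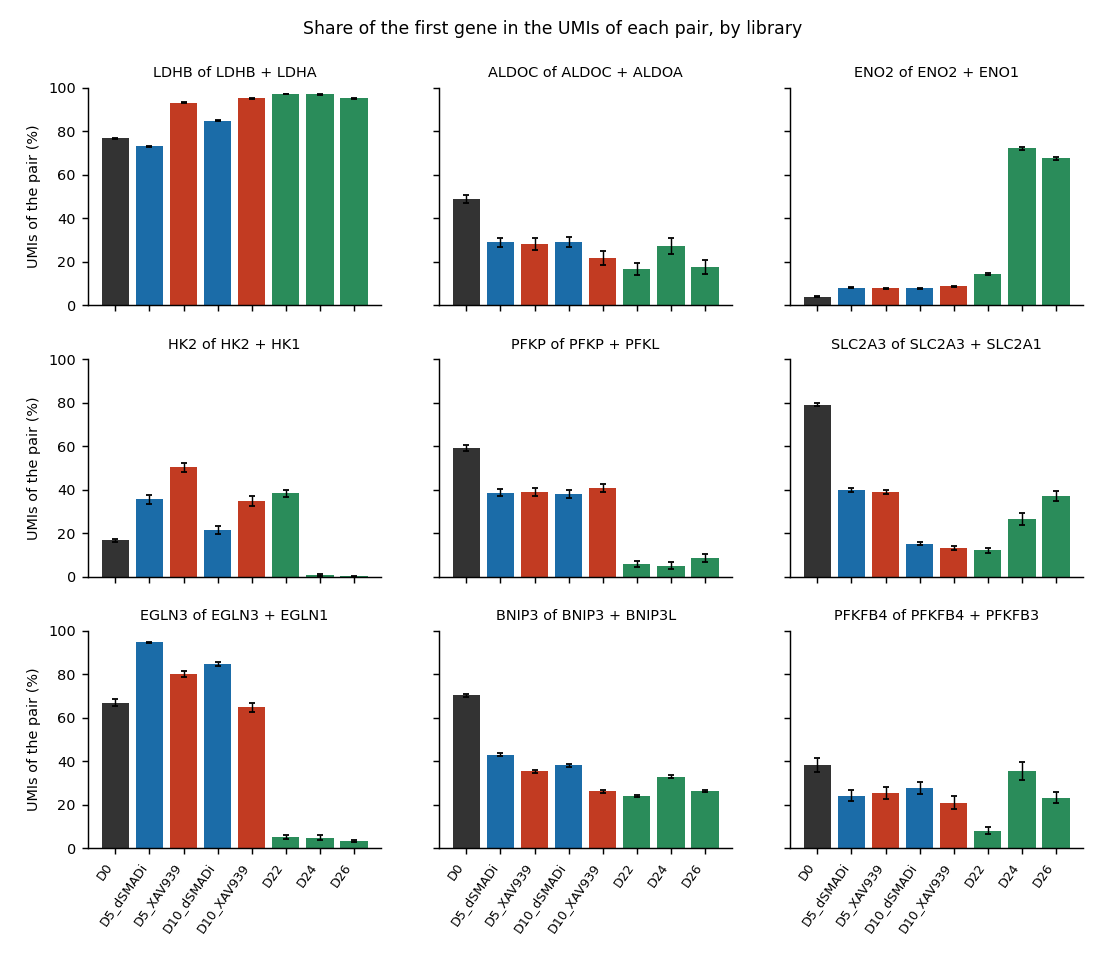
Share of UMIs (percent, vertical) that the first gene of each of 9 pairs holds in each of the 8 libraries (horizontal), with exact 95% counting intervals as bars. In the LDHB panel the cultures with XAV939 stand at 93.2% and 95.2% beside 73.1% and 84.9% without it, and in the ENO2 panel D24 and D26 stand at 72.1% and 67.5% beside 14.3% or less in the other libraries.

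In the late libraries the gates were 1 or more SOX2 UMIs, called progenitors in the rule, against 0 SOX2 UMIs with at least 1 UMI each of the neuron genes DCX and STMN2. At D22 this gave 6318 SOX2-positive cells and 2620 neurons, with 585 cells in neither, and medians of 12930.5 and 11338 UMIs. At D22 VIM, a filament protein of progenitors, and MAPT, a neuron marker, both outside the gates, went with the names. They were at 4083 against 2187 CPM and at 6.07 against 40.8 CPM. STMN2 was at 625 against 3583 CPM, but its higher level in the neurons was set in advance by the gate. At D24 and D26 the 553 and 488 SOX2-positive cells had STMN2 at 6456 and 7154 CPM, near the 9254 and 8144 CPM of the neurons, so these are called SOX2-positive cells only. Choosing by SOX2 and neuron genes used no member of the list.

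At D22, of 26 members with at least 10 CPM, 4 were higher and 2 lower past 1.5-fold in the SOX2-positive cells than in the neurons, where 8.67% of all genes were higher and 10.0% lower. Without mitochondrial and ribosomal protein genes in the totals 6 were higher and 1 lower (10.0% and 9.16% of all genes). Centred on the median of all genes, 5 and 2 were (9.33% and 9.07%). With gates of at least 2 SOX2 UMIs, 5 were higher and 4 lower (10.2% and 11.8%). SLC2A1 was at 28.1 against 16.0 CPM (log2 ratio 0.81, interval 0.67 to 0.95), LDHA at 40.5 against 23.8 CPM (0.77), ENO1 at 177 against 105 CPM (0.75) and P4HA1 at 32.2 against 21.1 CPM (0.61). The neuronal enolase ENO2 was lower, at 17.6 against 57.9 CPM (log2 ratio -1.72, interval -1.82 to -1.62), as was HK1, at 16.9 against 26.2 CPM (-0.63). HIF1A was at 101 against 107 CPM and PGK1 at 138 against 145 CPM, both within 1.5-fold. Beside these values, cell cycle genes were higher in the SOX2-positive cells in 5 of 5, and 3 of 6 dissociation genes (JUN, JUNB and IER2) were lower. Of 6 amino acid stress genes, PHGDH (75.3 against 22.1 CPM) and PSAT1 (56.5 against 18.0 CPM) were higher and DDIT3 (5.45 against 10.0 CPM) was lower. Of the other pathway genes 2 were higher and 2 lower of 24.

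Within the SOX2-positive cells of D22, 2120 with UMIs of both MKI67 and TOP2A were set against 3245 with neither. Of 25 members, 3 were higher and 4 lower in the dividing cells, where 13.0% of all genes were higher and 8.61% lower. LDHA was at 60.6 against 25.5 CPM (log2 ratio 1.25), HILPDA, a lipid droplet protein, at 84.9 against 43.7 CPM (0.96) and P4HA1 at 39.8 against 25.6 CPM (0.63). DDIT4, HK2, MXI1, a repressor and MYC antagonist, and HK1 were lower, with log2 ratios of -1.42, -1.26, -0.71 and -0.66. The level of LDHA in SOX2-positive cells without division UMIs, 25.5 CPM, was close to the 23.8 CPM of the neurons. These cells also differed in other ways. The cells without division UMIs had STMN2 at 981 CPM against 272 CPM in the dividing cells and DCX at 435 against 163 CPM, and 3 of 3 further neuron markers (GAP43, INA and TUBB3) were lower in the dividing cells. In the dividing cells 3 of 5 dissociation genes (HSPA1A, HSPA1B and DNAJB1) and 2 of 5 amino acid stress genes were higher, and the median depth was 17248 against 12155 UMIs. Their part in the differences of the members was not tested.

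At D24, of 23 members, ENO1 was higher (89.99 against 56.9 CPM, log2 ratio 0.66) and ENO2 lower (103 against 158 CPM, -0.62) in the SOX2-positive cells, where 6.60% of all genes were higher and 6.42% lower. In the same cells 4 of 4 cell cycle genes and 4 of 6 amino acid stress genes were higher, and 2 of 4 dissociation genes (JUN and HSPA1B) were lower, and their part was not tested. At D26, 0 of 23 members were past 1.5-fold in either direction, where 3.62% of all genes were higher and 3.77% lower. Neurons with 2 or more summed UMIs of DLX5 and DLX6-AS1 were called DLX-positive. The PPP1R17 and TBR1 class had 2 or more summed UMIs of those genes and fewer than 2 of DLX5 and DLX6-AS1. Between these classes at D26, DDIT4 was lower in the 1112 DLX-positive neurons than in the 8142 neurons of the PPP1R17 and TBR1 class (16.4 against 25.9 CPM, log2 ratio -0.66). It was the only one of 23 members past 1.5-fold there, with 0 higher, where 3.87% of all genes were higher and 6.81% lower. At D24, with 231 and 6207 cells, 0 were higher and 2 lower of 22, DDIT4 (-0.83) and FAM162A (-0.62), where 4.60% of all genes were higher and 13.1% lower. The median over all genes was -0.12 there, and relative to it the ratios were -0.70 and -0.50, which puts FAM162A within 1.5-fold. FAM162A at D26 was at 18.4 against 27.3 CPM (-0.57), just within 1.5-fold. The dissociation genes JUN and IER2 were also lower in the DLX-positive neurons, as 2 of 4 at D24 and 2 of 5 at D26, and the progenitor markers NES and VIM were higher at both days, while PAX6 was higher at D24 and lower at D26. Their part in the lower DDIT4 was not tested.

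**Figure D4:**
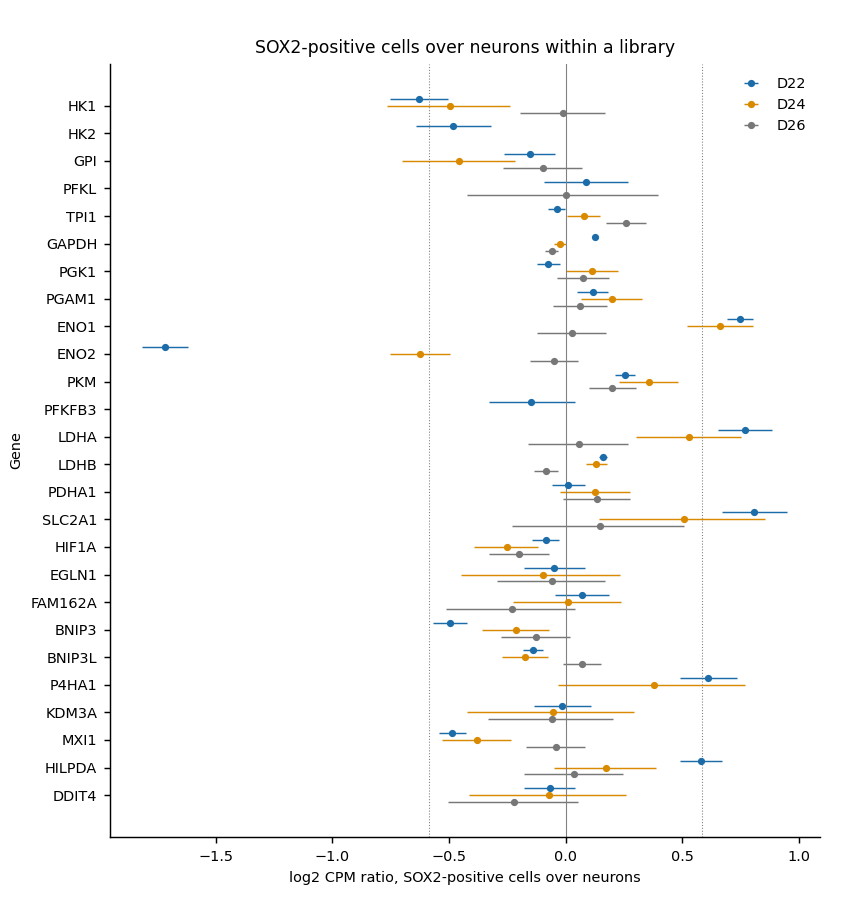
Log2 CPM ratio of SOX2-positive cells over neurons (horizontal) for the members with at least 10 CPM at D22 (vertical), with points for D22, D24 and D26 and bars for the exact 95% counting intervals; dotted lines mark 1.5-fold. ENO2 stands at -1.72 at D22 and -0.62 at D24, LDHA at 0.77 at D22, and all points of D26 lie between the dotted lines.

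In percentage points, the share of ENO2 among the enolases shifted most of the pairs in the late libraries, while in ratio HK2 against HK1 shifted more. ENO1 went from 160 CPM at D22 to 59.6 CPM at D24 and 74.9 CPM at D26, while ENO2 went from 26.7 to 154 and 156 CPM. The share of ENO2 in the pair was 14.3% at D22, against 72.1% and 67.5% in the following libraries. Within D22 it made up 9.03% in SOX2-positive cells, 35.5% in neurons, and 62.9% (interval 60.8% to 65.0%) in the 788 neurons of the PPP1R17 and TBR1 class, where ENO2 was at 135 CPM and ENO1 at 79.5 CPM. MXI1 was at 87.8 to 104.5 CPM in the late libraries and at 9.34 to 17.5 CPM in the early ones, set side by side only. HK2 went from 11.9 CPM at D22 to 0.23 and 0.07 CPM at D24 and D26.

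Lastly, the members were followed from cell to cell within each early library. Cells were thinned to 10000 UMIs and ranked into 10 bins of nearly equal size on the summed UMIs of EGLN3, P4HA1 and FAM162A, and the other members were read in each bin. At D0, LDHA was at 907 CPM in the top bin and 502 CPM in the bottom bin (log2 ratio 0.85, interval 0.70 to 1.01), PGK1 at 615 and 340 CPM, and BNIP3 at 385 and 147 CPM. In D5_dSMADi, LDHA was at 398 and 280 CPM (0.51, interval 0.36 to 0.65), and in D10_dSMADi at 266 and 166 CPM (0.68, interval 0.50 to 0.86). In D5_XAV939 it was at 60.9 and 62.8 CPM (-0.04, interval -0.36 to 0.27), and in D10_XAV939 at 55.6 and 47.5 CPM (0.23, interval -0.16 to 0.62). SLC2A3 was higher in the top bin of D5_XAV939, at 44.1 and 29.8 CPM (0.57, interval 0.16 to 0.98), as in D5_dSMADi (0.87, interval 0.50 to 1.25). In D10_XAV939 its log2 ratio was -0.09 (interval -0.73 to 0.55). PGK1 was at 201 and 195 CPM in D5_XAV939 (0.04, interval -0.13 to 0.21) and at 209 and 178 CPM in D10_XAV939 (0.23, interval 0.03 to 0.43), the latter leaving out 0. BNIP3 was at 53.7 CPM in the top bin of D10_XAV939 and 72.4 CPM in the bottom bin (-0.43, interval -0.79 to -0.07). Bin 2 of that library, which also held 0 UMIs of the ranking genes, was at 57.6 CPM, so no lower BNIP3 is read from these bins. The bottom bin held on average 0 UMIs of the ranking genes at D0 and in both libraries with XAV939, and the top bin held 6.15 at D0, 9.23 in D5_dSMADi, 6.78 in D10_dSMADi, 4.13 in D5_XAV939 and 3.70 in D10_XAV939, so the ranking separated cells least with XAV939. In both libraries with XAV939 bin 2 also held 0. Which of these tied cells fell in the bottom bin there was thus not set by the ranking.

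LDHB was nearly level across the bins, with log2 ratios of top over bottom between -0.08 and 0.04 in all 5 libraries, and HIF1A had an interval that left out 0 in D5_dSMADi and in no other early library (119 and 95.9 CPM). DDIT4 was lower in the top bin in D10_dSMADi (187 and 245 CPM) and in D10_XAV939 (398 and 484 CPM), and higher in the top bin at D0 (71.0 and 47.5 CPM, log2 ratio 0.58, interval 0.03 to 1.14). In D5_dSMADi, MKI67 was at 75.5 CPM in the top bin and 141 CPM in the bottom, so the cells that ranked high held fewer division UMIs. It was also lower in the top bin at D0 (160 and 180 CPM) and in D5_XAV939 (153 and 189 CPM). The same held in D10_dSMADi (151 and 163 CPM) and in D10_XAV939 (184 and 221 CPM). No interval was computed for these MKI67 ratios. Bin 9 had the highest MKI67 of all bins at D0 (208 CPM) and in D10_XAV939 (234 CPM), so no steady trend is read there. The part of division in the differences between bins was not tested. Over single cells the Spearman correlation of LDHA with the ranking sum was 0.193 at D0 (1009 cells), 0.0816 in D5_dSMADi (2419 cells), 0.0655 in D10_dSMADi (2416 cells), 0.0473 in D5_XAV939 (2815 cells) and 0.0036 in D10_XAV939 (2168 cells). Cells of a library share culture, run and thinned depth, and at these counts weak correlations carry little weight.

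**Figure D5:**
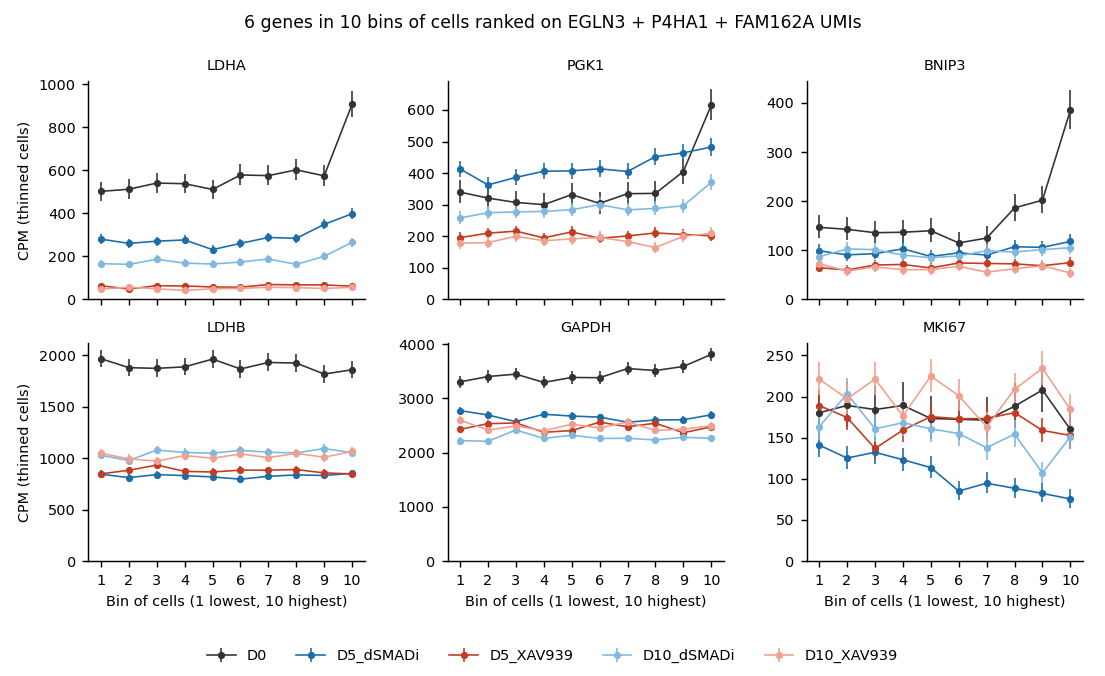
CPM (vertical) of 6 genes in 10 bins of cells (horizontal, 1 lowest and 10 highest) ranked on the summed UMIs of EGLN3, P4HA1 and FAM162A after thinning, with 1 line per early library and exact 95% counting intervals. LDHA and PGK1 are higher in the top bin than in the bottom bin at D0, in D5_dSMADi and in D10_dSMADi, as is PGK1 in D10_XAV939 (209 against 178 CPM), LDHA lies between 47.9 and 68.7 CPM in all bins of D5_XAV939, and LDHB is nearly level.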

How the data were processed

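The authors deposited filtered barcode by gene matrices of UMI counts, made with Cell Ranger on GRCh38 (3.1.0 in the file headers of D22, D24 and D26, 6.1.2 in those of the tagged pool, 3.1 in the submitters' notes) and, for the pool, already separated by tag. Multi-mapped reads were not counted. Cells were kept at the study's stated limits, which were at least 1500 UMIs and 1000 genes with under 20% mitochondrial UMIs at D22 to D26, 10000 and 3000 with under 10% at D5 and D10, and 30000 and 5000 with under 10% at D0, with complexity limits of 0.78 at D5 and 0.82 at D10 (upper limit 0.9) and D22 to D26. The limit of 0.85 stated for D0 left 1 cell and was not used. At D5 and D10 these limits kept fewer cells than the paper reports analysing. Its numbers equal all deposited barcodes, 2480 of D5_dSMADi, 2919 of D5_XAV939, 2778 of D10_dSMADi and 2638 of D10_XAV939. No doublet caller was run, and leaving out the 5% of cells with most UMIs was an alternative. UMIs were summed per library or gate. CPM carry exact Poisson intervals, ratios exact binomial intervals of the split of UMIs, and shares Clopper-Pearson intervals, all at 95%, and the ratio step was tested on simulated data. Past means 1.5-fold with at least 10 CPM in either group. Cells were thinned to 10000 UMIs for shares of cells and bins. Named with values are members past 1.5-fold in the comparisons by XAV939, day and gate, and the related pairs, and other members and genes named were chosen after their values were seen. The members and all lists were chosen with earlier results of these data known. Python 3.11.15, numpy 2.4.6, scipy 1.17.1, pandas 2.3.3 and matplotlib 3.10.9 were used.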

Additional observations from a re-analysis of the deposited data

Results flagged for a closer look

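VEGFA drew attention because its difference between cultures with and without XAV939 had opposite signs at the 2 days. The log2 ratio was -0.53 at D5 (interval -0.65 to -0.42) and 0.82 at D10 (interval 0.75 to 0.89). With 1 library per condition the difference between the days was not tested.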

How the results depend on the processing

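Of 97 counts recomputed under alternatives, 76 stayed within 1.5 times the main value and 21 did not. Most were counts of members, and the rest counted related-gene shares in which the first gene held the majority. Of 379 log2 ratios of named members, from 52 results, 283 stayed within the counting interval of the value reported and 96 did not. The largest move was 0.67, and 0 changed sign. These results were all past 1.5-fold in the main setting, so a change of sign was unlikely from the start. Members within 1.5-fold were not recomputed in this way. The related-gene shares moved by 1.79 percentage points at most over 216 values. With 2-fold in place of 1.5-fold, 0 members were higher with XAV939 at D5, 1 was higher and 3 lower at D10, 7 were lower from D0 to D5_dSMADi, 1 was higher and 1 lower from D5_dSMADi to D10_dSMADi, and 0 were higher and 1 lower in SOX2-positive cells than in neurons at D22. With no minimum CPM, 12 of 40 were lower with XAV939 at D10 (17.7% of all genes), and 11 were higher from D0 to D5_dSMADi (26.2%). In that setting 8 were lower from D5_dSMADi to D10_dSMADi (9.33%), and 8 were higher and 4 lower at D22 (19.1% and 16.7%). Centred on the median of all genes, or without mitochondrial and ribosomal protein genes in the totals, 2 were higher from D5_dSMADi to D10_dSMADi (8.46% and 9.64% of all genes). In the latter setting 1 was lower at D22 (9.16%). At D22, 4 were lower with at least 2 SOX2 UMIs (11.8% of all genes) and 4 with gates set after thinning to 1500 UMIs (13.4%). With every cell without a SOX2 UMI as a neuron, 1 was lower (7.65%). In dividing cells alone 2 were higher with XAV939 at D5 (2.69% of all genes), and in cells not dividing 0 were (4.31%). The settings by division and without a complexity limit were chosen after seeing the data. The changes under another fold or minimum follow from the rule itself, and for the others the cause was not tested. Leaving out a replicate was not possible with 1 library per condition. No paired analysis was possible because each condition was 1 library with no replicate number. Members under 10 CPM are limited by depth.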
